A study of Saccharomyces cerevisiae with 232 samples.

Results

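The 16 codons that begin with G are described here, of 61 sense codons whose frequency was measured at the 3 sites of the ribosome in budding yeast. They encode valine (GUN), alanine (GCN), aspartate (GAU and GAC), glutamate (GAA and GAG) and glycine (GGN), 5 amino acids in all. They were chosen by their first letter alone, with no measured value. Ribosome profiling sequences the pieces of mRNA that translating ribosomes shield from nuclease, and the codon lying in each site of each shielded piece is then counted. The deposited values are log2 changes of normalized codon frequency relative to wild type, so that a positive value means that the codon filled that site more often than in wild type.

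The tested groups were 57 deletion strains of Saccharomyces cerevisiae BY4741, a haploid laboratory strain, each with 1 gene replaced by the kanMX resistance cassette and named by that gene followed by D. Strains of the Elongator complex and its Kti partners were elp1D to elp6D, kti11D, kti12D and kti13D. Strains of the Urm1 thiolation pathway were urm1D, uba4D, ncs2D, ncs6D and tum1D. Strains of the Trm9 methyltransferase were trm9D and trm112D, and those of the Sit4 phosphatase were sit4D, sap185D and sap190D. The KEOPS strains were bud32D, gon7D and cgi121D, and the strains of the position 46 methyltransferase were trm8D and trm82D. Pseudouridine synthases were lost in pus1D, pus2D, pus3D, pus4D, pus5D, pus7D and pus9D, and dihydrouridine synthases in dus1D, dus2D, dus3D and dus4D. The remaining strains were isu1D, isu2D, mod5D, rit1D, rtt10D, tad1D, tan1D, trm1D, trm2D, trm3D, trm4D, trm7D, trm10D, trm11D, trm12D, trm13D, trm44D, trm140D, trm732D, tyw1D, tyw3D and tyw4D. The group they were set against was wild-type BY4741. All cells grew at 30 °C in rich medium and were given cycloheximide, which arrests elongating ribosomes, at 100 µg/mL for 30 s before harvest. There were 113 libraries of strains, 2 for each strain but kti13D, which had 1, and 13 libraries of wild type. No test was made of kti13D alone, but it entered the tests of the Elongator mean. The labels do not say whether 2 libraries of a strain came from separate cultures, so the p-values measure only the spread between these libraries.

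A charged tRNA enters the ribosome at the A site, holds the growing peptide at the P site and leaves from the E site. The first tRNA anticodon base, the wobble base, pairs with the third letter of the codon and is often modified, while modifications in the body of the tRNA bear on its folding and stability. Among the tRNAs that read codons beginning with G, the Elongator pathway builds side chains on the wobble uridine of those reading GAA, GGA, GCA and GUA, and the Urm1 pathway adds sulfur to the wobble uridine of the one reading GAA. Inosine, made from adenosine, is the wobble base of the tRNAs that read GCU and GCC and of those that read GUU and GUC.

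The results below turn on 4 groups of tRNA, whose sequences are shown because they differ at the bases that several of the deleted enzymes modify. The reference annotation holds 87 nuclear tRNA genes for the 5 amino acids. The valine tRNAs are shown by 1 of 2 genes with anticodon CAC (YNCD0022C, chrIV:1075472-1075544, minus strand), 1 of 14 with AAC (YNCE0023W, chrV:438700-438773, plus strand) and 1 of 2 with TAC (YNCB0011C, chrII:326792-326865, minus strand). The alanine tRNAs are shown by 1 of 5 genes with TGC (TGA1, chrI:166267-166339, plus strand) and 1 of 11 with AGC (YNCD0004W, chrIV:410379-410451, plus strand). The glutamate tRNA is 1 of 14 genes with TTC (SOE1, chrVII:328583-328654, plus strand), and the glycine tRNA is 1 of 3 with TCC (SUF1, chrXV:110962-111033, minus strand). The letters are gene sequence from RefSeq, build R64 (sacCer3), with T for U. Capitals mark the base at conventional tRNA positions 9 and 26, then the anticodon, then the base at position 46.
tRNA-Val(CAC), reads GUG: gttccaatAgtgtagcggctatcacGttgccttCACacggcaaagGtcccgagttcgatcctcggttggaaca
tRNA-Val(AAC), reads GUU and GUC: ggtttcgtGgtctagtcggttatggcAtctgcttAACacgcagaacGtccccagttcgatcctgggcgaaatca
tRNA-Val(TAC), reads GUA: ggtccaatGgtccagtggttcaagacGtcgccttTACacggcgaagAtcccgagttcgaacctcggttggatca
tRNA-Ala(TGC), reads GCA and GCG: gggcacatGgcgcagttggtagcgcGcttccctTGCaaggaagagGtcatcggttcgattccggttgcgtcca
tRNA-Ala(AGC), reads GCU and GCC: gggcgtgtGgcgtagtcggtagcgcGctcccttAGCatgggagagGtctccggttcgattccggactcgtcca
tRNA-Glu(TTC), reads GAA: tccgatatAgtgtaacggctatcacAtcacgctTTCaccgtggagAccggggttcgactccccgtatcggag
tRNA-Gly(TCC), reads GGA: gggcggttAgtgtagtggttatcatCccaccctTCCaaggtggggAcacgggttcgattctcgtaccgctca

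Both alanine tRNAs carry G at all 3 of the positions 9, 26 and 46. Of the valine tRNAs, those with anticodons CAC and AAC carry G at position 46 and the one with TAC carries A there. The glutamate and glycine tRNAs shown carry no G at positions 9, 26 or 46. Over all 87 genes, G was the ninth base from the 5′ end in 51, and stood at position 26 in 36 and at position 46 in 34. The ninth base was taken as position 9. In 1 of the 51, the tRNA-Asp gene YNCN0008C of 71 bases, this count falls 1 base past that position.

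Codons beginning with G made up 28.4% of all codons of the coding sequences, and 34.1% to 34.8% of those weighted by footprints in wild type. Library depth, recovered from the deposited expression values, ran from 811000 to 16300000 reads with a median of 3110000. The tests used the spread within wild type and within the strains together. Between the 13 wild-type libraries alone, the spread was taken as an SD on the log2 scale. Its median for codons beginning with G was 0.034 at the A site, 0.021 at the P site and 0.022 at the E site. For the other codons it was 0.031, 0.030 and 0.019. The widest spread at the A and P sites was that of GCG, with SDs of 0.052 and 0.059. Values of all libraries for these codons lay between −0.44 and 0.45 at the A site, −0.56 and 0.63 at the P site and −0.28 and 0.15 at the E site.

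Of 2688 tests of a codon beginning with G in a strain at a site, 463 (17.2%) passed a Benjamini-Hochberg adjusted p of 0.05 in limma, and 54.4% of these were higher than wild type. Over all 61 codons the share that passed was 18.5% (9.80% higher and 8.74% lower), close to the share of the codons beginning with G. By site, 20.5% of 896 tests passed at the A site (95 higher and 89 lower), 22.7% at the P site and 8.48% at the E site (35 higher and 41 lower). The shares of all codons were 21.8% at the A site (9.81% lower), 22.7% at the P site (12.9% higher, 9.72% lower) and 11.2% at the E site (4.45% higher, 6.70% lower). With each library centred on its median codon, the E-site calls of these codons split as 51 higher and 32 lower. The centred split of all codons was not taken, so this turn is not shown to be particular to codons beginning with G. The libraries fall into 3 processing sets, each with its own wild-type libraries. In a fit with the set as a covariate 10.7% of the tests of these codons passed, against 11.9% of all codons (6.46% higher, 5.46% lower). Each also passed without it and in the same direction, which adds little, since deposited values are already relative to the wild-type libraries of their set. The set term thus hardly moves a change, but leaves fewer wild-type libraries in each comparison. A call lost with it is not shown to be a difference between sets.

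Most changes were small: the median size of a called change was 0.10 on the log2 scale, and the largest was 0.59. Both libraries of a strain lay above every wild-type library in 14.7% of the strain and site values of these codons and below every one in 11%, against 13.8% above and 12.3% below over all codons. Glutamate codons were called most often at the A site, in 38.4% of their tests (43 of 112). Valine codons were called in 12.5% of theirs (28 calls), against 21.8% for all codons. GAA was called in every tested Elongator and thiolation strain, so the glutamate share depends on which genes were deleted. In 6 strains (isu1D, isu2D, rit1D, rtt10D, trm732D and tyw1D) no codon beginning with G passed in limma, and 0 to 4 of 48 values in each had an unadjusted p under 0.05.

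Valine codons at the P site gave the largest changes of the 16, in the strains that lack 7-methylguanosine at position 46. Trm8 is the methyltransferase that makes this base and Trm82 is its partner subunit. GUG at the P site stood at 0.57 and 0.61 in the trm82D libraries, and at −0.053 to 0.044 (median −0.0050) in the 13 wild-type libraries. In the trm8D libraries it stood at 0.55 and 0.63. All 4 libraries of these strains lay far above every wild-type library. The change was 0.59 ± 0.036 (SE), 1.51-fold, in trm82D (limma adjusted p = 2.41e-23) and 0.59 ± 0.036 in trm8D (adjusted p = 3.25e-23). GUC at the P site was 0.29 and 0.33 in trm82D and 0.26 and 0.30 in trm8D, against −0.037 to 0.050 (median 0.0023) in wild type. It rose by 0.31 in trm82D (adjusted p = 1.2e-16) and by 0.28 in trm8D (adjusted p = 1.33e-14). GUU was 0.25 and 0.26 in trm82D and 0.12 and 0.21 in trm8D, against −0.039 to 0.030 (median −0.0015) in wild type, and rose by 0.26 (adjusted p = 2.75e-10) and 0.17 (adjusted p = 2.02e-05). GUA, whose tRNA carries A at position 46 in the gene, was 0.052 and 0.030 in trm82D and 0.031 and 0.041 in trm8D, against −0.039 to 0.035 (median −0.0019) in wild type. These values overlap those of wild type, and the changes of 0.041 (adjusted p = 0.374) and 0.036 (adjusted p = 0.448) did not pass. Both strains were compared with the same wild-type libraries.

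The 2 strains together moved few other codons beginning with G. In their mean, 7 of 48 codon and site values passed, against 23.0% of all codons, and 4 after adjustment for the processing set. Those 4 were GUG, GUC and GUU at the P site (0.59, 0.29 and 0.21) and GUG at the E site (−0.12). Median centring turned the split of the 7 calls from 4 higher and 3 lower into 5 and 2. At the E site GUG was lower, at −0.17 and −0.13 in trm82D and −0.083 and −0.092 in trm8D, against −0.034 to 0.026 in wild type. At the A site GUG did not pass in either strain. It stood at 0.070 and 0.10 in trm82D (change 0.088, adjusted p = 0.175) and at 0.040 and 0.054 in trm8D (0.048, adjusted p = 0.526), against −0.11 to 0.054 in wild type, with both trm82D libraries above that range. The A-site change minus the P-site change, tested within libraries, was −0.50 in trm82D (adjusted p = 1.38e-09) and −0.54 in trm8D (adjusted p = 1.56e-10). Footprint-weighted usage of GUG, its share of the coding sequences weighted by each gene's footprints, changed by −0.013 in trm82D and −0.0068 in trm8D relative to wild-type libraries of the same processing set. Usage changes of single strains are given in this way throughout, and those of pathway means relative to all 13 wild-type libraries. Subtraction always used the wild-type libraries of the same set. A pathway mean less its printed usage can therefore differ from the value after subtraction, even in sign. Whether the deposited normalization already allows for usage was not tested. Of the 8 codons read by tRNAs with G at position 46, the 3 valine codons rose in each strain, and the 5 others (the 4 alanine codons and GGG) did not pass at the P site. Of the 8 codons read by tRNAs without it, none passed in trm82D (2 had an unadjusted p under 0.05), and in trm8D 1 rose and 2 fell. In all 4 of 48 values passed in trm82D and 10 in trm8D, against 9.29% and 21.9% of all codons.

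Loss of Pus1, a pseudouridine synthase with targets in many tRNAs, gave the lowest strain changes of GUC, GUU and GUA at the same site. GUC at the P site stood at −0.49 and −0.56 in pus1D, against −0.037 to 0.050 (median 0.0023) in wild type. It fell by 0.52 ± 0.026 (SE), to 0.697 of the wild-type frequency (limma adjusted p = 2.6e-28), and no library came near the wild-type range. GUU was −0.35 and −0.44, against −0.039 to 0.030 in wild type, and fell by 0.39 (adjusted p = 1.18e-17). GUA was −0.28 and −0.30, against −0.039 to 0.035 in wild type, and fell by 0.29 (adjusted p = 1.19e-12). GUG was nearer to wild type, with −0.051 and −0.14 in pus1D against −0.053 to 0.044 in wild type. Its change of −0.096 passed (adjusted p = 0.0485) but not after adjustment for the processing set (adjusted p = 0.106) or with the second library of every strain left out (−0.051, adjusted p = 0.27). GUU was higher at the E site, at 0.11 and 0.087, against −0.059 to 0.052 in wild type (change 0.097, adjusted p = 0.00362). At the A site neither GUC (−0.087, adjusted p = 0.112) nor GUU (−0.066, adjusted p = 0.273) passed, and the A-site minus P-site change of GUC was 0.44 (adjusted p = 2.57e-12). In all, 12 of 48 values of these codons passed in pus1D (8 higher and 4 lower, or 4 and 4 of 8 after median centring), against 23.0% of all codons. The 4 that fell were the 4 valine codons at the P site. Among those that rose was GCU at the P site, which gained 0.088 (adjusted p = 5.76e-06).

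The alanine codons GCA and GCG rose at the P site in dus1D and fell in trm1D and trm10D, 3 strains that lack modifications of the tRNA body. Dus1 makes dihydrouridine in the D loop, Trm1 dimethylates guanosine at position 26 and Trm10 methylates guanosine at position 9. GCG at the P site stood at 0.35 and 0.36 in dus1D, against −0.14 to 0.085 (median 0.016) in wild type. Both libraries lay above the wild-type range, with a change of 0.35 ± 0.044 (SE), 1.28-fold (limma adjusted p = 1.04e-09). GCA, read by the same tRNA, was 0.23 and 0.22 in dus1D, against −0.067 to 0.065 (median −0.0084) in wild type, and rose by 0.23 (adjusted p = 1.71e-09). In trm1D the same pair was low. GCG was −0.38 and −0.31, below the wild-type range, and fell by 0.34 ± 0.044, to 0.790 of the wild-type frequency (adjusted p = 3.69e-09). GCA was −0.24 and −0.28 in trm1D and fell by 0.26 (adjusted p = 1.42e-11). GCA stood at −0.27 and −0.29 in trm10D, a change of −0.28 ± 0.029 (adjusted p = 1.19e-12). GCG in trm10D stood at −0.20 and −0.24 and fell by 0.22 (adjusted p = 8.41e-05), again below every wild-type library.

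The direction at the E site was the reverse for both codons in trm10D. GCA at the E site was 0.11 and 0.10 in trm10D, against −0.035 to 0.053 in wild type, and rose by 0.11 (adjusted p = 0.00818). GCG there was 0.14 and 0.11, against −0.059 to 0.074 in wild type, and rose by 0.13 (adjusted p = 0.00855). Both calls were lost after adjustment for the processing set (adjusted p = 0.0512 and 0.0543). In trm1D GCA at the E site was 0.11 and 0.12 and rose by 0.11 (adjusted p = 0.00402, and 0.0324 after set adjustment), and the call was lost after subtraction of usage (0.075, adjusted p = 0.118). At the A site minus the P site, GCG differed by −0.30 in dus1D, 0.36 in trm1D and 0.30 in trm10D (adjusted p = 7.31e-06, 1.67e-07 and 7.48e-06).

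The GCU and GCC codons, read by the other alanine tRNA, did not follow GCA and GCG in trm1D. GCU at the P site was 0.13 and 0.095 in trm1D, against −0.034 to 0.028 in wild type, and rose by 0.11 (adjusted p = 2.46e-08), while GCC at 0.083 and 0.045 did not pass (change 0.064, adjusted p = 0.0511). Aspartate GAU (0.14, adjusted p = 1.08e-09), glycine GGU (0.13, adjusted p = 2.51e-07) and valine GUG (0.13, adjusted p = 0.00516) rose there as well, and valine GUA fell by 0.14 (adjusted p = 0.000325). The call of GUG was lost after subtraction of usage (0.091, adjusted p = 0.0761). In trm10D GUC fell by 0.15 (adjusted p = 3.24e-06), GCU by 0.088 (adjusted p = 7.06e-06) and GCC by 0.072 (adjusted p = 0.0242, and 0.108 after set adjustment), and GGU rose by 0.11 (adjusted p = 1.43e-05). With the first library of every strain left out GCC in trm10D stood at −0.033 (adjusted p = 0.414). Over all sites 24 of 48 values passed in trm1D (16 higher and 8 lower, 23 and 5 after median centring), against 51.4% of all codons. In trm10D 11 of 48 passed, against 14.2%, and in dus1D 16 of 48, against 31.7%.

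The codons were also sorted by the base that each enzyme modifies. At the P site in trm10D, 5 of the 10 codons whose tRNA has G at position 9 fell and 1 rose, and 0 of the 6 others passed in limma (1 at an unadjusted p under 0.05). At the E site 5 of the 10 rose, and 0 of the 6 others passed (0 at an unadjusted p under 0.05). In trm1D at the P site, 4 of the 8 codons whose tRNA has G at position 26 rose and 3 fell, while of the 8 others 3 rose and 1 fell. The sorting was chosen after the values were seen, the codons that share a tRNA are not separate observations, and no test was made of it.

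GCG reached its highest A-site value, and the largest A-site change of the 16 codons, in sit4D. Sit4 is a protein phosphatase that acts on the Elongator complex, and it also has other targets in growth control. GCG at the A site stood at 0.42 and 0.45 in sit4D, against −0.13 to 0.072 (median −0.0004) in wild type, and rose by 0.43 ± 0.040 (SE), 1.35-fold (limma adjusted p = 2.34e-14). P-site values were 0.27 and 0.29, against −0.14 to 0.085 in wild type, and rose by 0.28 (adjusted p = 7.4e-07). GCA rose at the P site by 0.20 (adjusted p = 5.41e-08). GGG, a glycine codon, was 0.15 and 0.25 at the A site, against −0.074 to 0.074 in wild type, and rose by 0.20 (adjusted p = 1.53e-05). Usage of GGG rose by 0.12 in the same libraries, and 0.080 was left after its subtraction (adjusted p = 0.166). For GCG at the A site the usage change was 0.071, and 0.36 was left. In sit4D 18 of 48 values passed (11 higher and 7 lower, or 7 and 10 after median centring), against 44.3% of all codons.

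In the mean of sit4D with its regulatory partner strains sap185D and sap190D, some calls were lost without sit4D. In that mean 15 of 48 values passed (12 higher and 3 lower, 8 and 4 after median centring), against 39.3% of all codons, 3 after adjustment for the processing set and 7 without sit4D. GCG rose by 0.16 at the A site (adjusted p = 1.34e-06), but by 0.022 without sit4D (adjusted p = 0.571) and with adjusted p = 0.0564 when each strain counted as 1 value. GCG rose by 0.19 at the P site (adjusted p = 1.62e-07), and all 6 libraries lay above the wild-type range of −0.14 to 0.085, between 0.11 and 0.29. GCA rose there by 0.10 (adjusted p = 1.17e-05), but stood at 0.050 without sit4D (adjusted p = 0.0819). GGU at the A site rose by 0.072 (adjusted p = 0.00211, and 0.0647 after set adjustment).

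Tad1 deaminates adenosine beside the anticodon of tRNA-Ala(AGC), which reads GCU and GCC. GCU at the P site was −0.097 and −0.054 in tad1D, against −0.034 to 0.028 (median 0.0022) in wild type, and fell by 0.076 ± 0.015 (SE; limma adjusted p = 0.000106, and 0.00309 after set adjustment). GCC at the P site was −0.091 and −0.045, overlapping the wild-type range of −0.049 to 0.031, with a change of −0.068 (adjusted p = 0.0374). At the A site GCU was 0.059 and 0.054, above the wild-type range of −0.020 to 0.039, with a change of 0.057 (adjusted p = 0.0295), and GCC was 0.054 and 0.12, overlapping −0.056 to 0.056, with a change of 0.086 (adjusted p = 0.0494). After adjustment for the processing set these 3 gave adjusted p = 0.142, 0.119 and 0.167. The A-site minus P-site difference was 0.13 for GCU (adjusted p = 8.67e-07) and 0.15 for GCC (adjusted p = 2.47e-08). At the E site the 2 libraries went opposite ways for both codons, with −0.034 and 0.039 for GCU and −0.040 and 0.087 for GCC, and the value of GCU passed in each direction when the other library of every strain was left out (adjusted p = 0.04 and 0.0221). In tad1D 5 of 48 values passed (2 higher and 3 lower, 1 and 3 after median centring), against 4.92% of all codons.

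In the strains of the Elongator complex, GAA rose at the A site and GGA fell. Both are read by tRNAs whose wobble uridine carries an Elongator side chain. GAA at the A site ran from 0.044 to 0.19 (median 0.14) in 17 libraries of 9 strains, against −0.036 to 0.036 (median −0.0008) in 13 wild-type libraries. Every one of the 17 lay above every wild-type library, and 8 of 8 strains tested were called higher. The mean change was 0.13 ± 0.010 (SE), 1.09-fold (limma adjusted p = 3.71e-18), and the largest was in elp5D, at 0.19 and 0.16. GGA at the A site ran from −0.23 to −0.11 (median −0.14) in the Elongator libraries, against −0.032 to 0.045 (median −0.0043) in wild type. All 17 lay below the wild-type range, 8 of 8 strains were called lower, and the mean change was −0.15 ± 0.011 (adjusted p = 3.74e-19). In kti11D, the lowest of them, GGA stood at −0.17 and −0.21. GAG, the other glutamate codon, fell by 0.060 at the A site (adjusted p = 7.48e-07). GAA fell at the P site by 0.029 (adjusted p = 0.00362) and GGA by 0.074 (adjusted p = 2.89e-06). The A-site minus P-site change of GAA was 0.16 (adjusted p = 6.66e-21). Usage of GAA changed by −0.0050 (adjusted p = 0.0654) and usage of GGA by 0.070 (adjusted p = 7.12e-09), opposite to its A-site change.

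Several alanine and valine codons of the Elongator strains rose at the P site. GCG at the P site ran from 0.10 to 0.29 (median 0.21) in the 17 libraries, against −0.14 to 0.085 (median 0.016) in wild type. All 17 lay above the wild-type range, 8 of 8 strains were called higher, and the mean change was 0.22 ± 0.022 (SE), 1.16-fold (adjusted p = 5.84e-14). At the A site GCG rose by 0.16 (adjusted p = 1.99e-10), with 15 of 17 libraries above the wild-type range and the largest change in elp2D, at 0.21 and 0.20. GCA fell at the A site by 0.076 (adjusted p = 1.5e-06) and rose at the P site by 0.082 (adjusted p = 8.79e-07), an A-site minus P-site difference of −0.16 (adjusted p = 3.79e-10). GUA fell at the A site by 0.062 (adjusted p = 0.0298, and 0.0511 after set adjustment) and rose at the P site by 0.094 (adjusted p = 1.08e-07), and GUG rose at the P site by 0.086 (adjusted p = 2.78e-05). GUC and GUU likewise fell at the A site, by 0.067 (adjusted p = 0.00207) and 0.079 (adjusted p = 0.000518), and rose at the P site, by 0.080 (adjusted p = 1.6e-07) and 0.044 (adjusted p = 0.0108). The A-site minus P-site difference passed for these valine codons, at −0.15 for GUC (adjusted p = 5.39e-08) and −0.12 for GUU (adjusted p = 3.21e-06), and not for GCG (−0.058, adjusted p = 0.0506). Usage rose for GCG, GCA, GUA and GUG by 0.079, 0.079, 0.079 and 0.086. After subtraction of usage, GCA and GUG at the P site stood at −0.0034 and −0.0030 and GUA at 0.0019, and none of the 3 passed. In all 31 of 48 values passed in the Elongator mean (12 higher and 19 lower), against 56.3% of all codons (30.1% higher and 26.2% lower), and 29 after adjustment for the processing set.

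The thiolation strains shared the direction for GAA and GGA at the A site. GAA ran from 0.016 to 0.14 (median 0.11) in 10 libraries, of which 9 lay above the wild-type range, and rose by 0.097 ± 0.012 (SE; limma adjusted p = 2.45e-10), with 5 of 5 strains called. GGA, whose tRNA has no thiolated wobble base, ran from −0.16 to −0.032 (median −0.11), with 9 of 10 libraries below the wild-type range and a change of −0.10 (adjusted p = 2.6e-10). GAG fell by 0.063 (adjusted p = 8.13e-06) and GCG rose by 0.10 (adjusted p = 0.000205) at the A site. GGA fell at the P site by 0.070 (adjusted p = 0.000205), GCG rose by 0.088 (adjusted p = 0.00274) and GUA rose by 0.070 (adjusted p = 0.000364). In all 14 of 48 values passed, 7 higher and 7 lower, against 42.1% of all codons, and 7 passed after adjustment for the processing set. After subtraction of usage GCG stood at 0.023 at the A site (adjusted p = 0.386) and at 0.0095 at the P site (adjusted p = 0.734), and GUA at the P site turned to −0.0062 (adjusted p = 0.765).

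The codons for which these pathways are best known give the scale of these changes. AAA for lysine rose at the A site by 0.22 in the Elongator strains and 0.33 in the thiolation strains. CAA for glutamine rose by 0.37 in each. AGA for arginine, whose tRNA has the Elongator side chain without sulfur, fell by 0.13 in the Elongator strains and by 0.081 in the thiolation strains, as GGA did.

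Tested directly, the Elongator mean differed from the thiolation mean in 13 of 48 values, 7 higher and 6 lower, against 17.5% of all codons. The largest difference was at the P site for GCG, 0.22 in the Elongator and 0.088 in the thiolation strains (difference 0.13, adjusted p = 1.67e-05). GCA differed at the A site by −0.077 (adjusted p = 2.48e-05, and 0.0793 at −0.041 with the second library of every strain left out) and GUG at the P site by 0.080 (adjusted p = 0.00109). GAA at the A site differed by 0.033 (adjusted p = 0.0295), which was lost after set adjustment (adjusted p = 0.105). With 1 value per strain only 2 of the 13 differences passed, GCG at the P site and GCA at the A site (adjusted p = 0.0152 for each).

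The strains of the Trm9 methyltransferase, which completes the Elongator side chain, went opposite ways for GAA. Trm112 is the partner of Trm9 and also of other methyltransferases, among them enzymes that act on ribosomes and on the release factor. GAA at the A site was 0.089 and 0.10 in trm9D, against −0.036 to 0.036 in wild type, and rose by 0.095 ± 0.021 (SE; limma adjusted p = 0.000403). In trm112D it was −0.13 and −0.19, below the wild-type range, with a change of −0.16 ± 0.021 (adjusted p = 8.94e-09). At the P site the order turned: GAA was −0.11 and −0.11 in trm9D (change −0.11, adjusted p = 1.12e-06) and 0.12 and 0.082 in trm112D (change 0.099, adjusted p = 1.14e-05), against −0.019 to 0.014 in wild type. The difference trm112D minus trm9D was −0.25 at the A site (adjusted p = 2.93e-12) and 0.21 at the P site (adjusted p = 4.82e-12). The processing sets of trm112D and trm9D differ, with 3 and 4 wild-type libraries, so their values are relative to separate references. No set-adjusted value of this difference is given. The A-site values of trm112D were shifted as a whole: the median of its 61 codons was −0.11, the only such shift over 0.1 among all strains and sites. After centring on that median GAA in trm112D stood at −0.052 (adjusted p = 0.0839) and its difference from trm9D at −0.13 (adjusted p = 7.81e-05).

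GGA at the A site was −0.0009 and 0.038 in trm9D, within the wild-type range of −0.032 to 0.045 (change 0.019, adjusted p = 0.638). In trm112D it was −0.30 and −0.25 and fell by 0.27 (adjusted p = 1.02e-16), or by 0.17 relative to the median codon (adjusted p = 1.47e-08). In trm9D 4 of 48 values passed (3 higher and 1 lower, 1 and 1 after median centring), against 12.6% of all codons. In trm112D 27 of 48 passed, 13 higher and 14 lower, against 57.9%. The difference between the strains passed for 31 of 48 values, 12 higher and 19 lower (15 and 15 of 30 after median centring), against 62.8% of all codons. Their mean passed for 25 of 48 values, against 51.9%, and for 2 without trm112D.

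In trm112D both aspartate codons were low at the A site and all 4 valine codons were high. GAU stood at −0.29 and −0.44, against −0.11 to 0.057 in wild type, and GAC at −0.24 and −0.33, against −0.042 to 0.059. These aspartate codons fell by 0.36 (adjusted p = 4.19e-10) and 0.28 (adjusted p = 5.9e-12). Glycine GGU was −0.32 and −0.31, against −0.067 to 0.042 in wild type, and fell by 0.32 (adjusted p = 4.95e-14), and GGC fell by 0.28 (adjusted p = 9.58e-11). All 4 valine codons rose: GUA was 0.30 and 0.42, against −0.087 to 0.091 in wild type, and rose by 0.36 (adjusted p = 4.83e-08), GUG rose by 0.28 (adjusted p = 7.37e-07), GUU by 0.27 (adjusted p = 2.35e-07) and GUC by 0.24 (adjusted p = 1.35e-06). Relative to the median codon GAU stood at −0.26, GGU at −0.21 and GUA at 0.47, and each still passed. Usage rose by 0.33 for GUA and 0.24 for GUG, and after its subtraction 0.032 (adjusted p = 0.746) and 0.038 (adjusted p = 0.635) were left. For GUU usage changed by −0.11 instead, and 0.37 was left (adjusted p = 4.13e-13). Usage of GGA rose by 0.29, and its A-site change after subtraction was −0.56. Alanine GCC at the P site rose by 0.29 (adjusted p = 3.02e-16) and GCU by 0.27 (adjusted p = 1.09e-24), and GUG fell by 0.19 (adjusted p = 3.58e-05). GUG fell at the E site by 0.19 (adjusted p = 4.21e-10) and GGA rose by 0.14 (adjusted p = 0.000717). After subtraction of usage GGA at the E site stood at −0.15 (adjusted p = 0.00045). The trm112D libraries held 1780000 and 811000 reads, and the second is the shallowest of all. The part of depth in these values was not tested.

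KEOPS makes threonylcarbamoyladenosine next to the anticodon of tRNAs that read codons beginning with A, so none of its target tRNAs reads a codon beginning with G. In the 3 KEOPS strains, GGU at the A site ran from 0.14 to 0.28 (median 0.23) in 6 libraries, against −0.067 to 0.042 (median 0.0033) in wild type. All 6 lay above the wild-type range, and the mean change was 0.21 ± 0.020 (SE), 1.16-fold (limma adjusted p = 3.52e-15). By strain GGU stood at 0.25 and 0.25 in bud32D, 0.21 and 0.28 in gon7D and 0.14 and 0.14 in cgi121D. GAU ran from 0.12 to 0.27 (median 0.21), against −0.11 to 0.057 in wild type, again with no overlap, and rose by 0.20 (adjusted p = 1.38e-08). GGC rose by 0.12 (adjusted p = 1.15e-06) and GGA by 0.080 (adjusted p = 2.34e-06), while GUA fell by 0.13 (adjusted p = 0.000475). In gon7D, where GUA was −0.19 and −0.18, it lay below the wild-type range of −0.087 to 0.091. GAU rose at the P site by 0.11 (adjusted p = 7.03e-14) and GCG by 0.14 (adjusted p = 1.6e-05), and at the E site GGU fell by 0.071 (adjusted p = 7.9e-10).

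Usage of GGU changed by −0.056 in these strains and usage of GAU by 0.034, so that the A-site changes were larger than those of usage. For GGC and GUA usage rose by 0.15 and 0.18, and after subtraction GGC at the A site stood at −0.0007 (adjusted p = 0.974). Usage of GGA rose by 0.18, and its A-site value turned to −0.046 after subtraction (adjusted p = 0.0364). For GCG usage rose by 0.18, and 0.015 was left at the P site (adjusted p = 0.63). Relative to wild-type libraries of the same set, as subtracted, usage of GGC, GUA, GGA and GCG rose by 0.12, 0.13, 0.13 and 0.13. In all 28 of 48 values passed in the KEOPS mean, 19 higher and 9 lower, against 67.2% of all codons (36.6% higher and 30.6% lower), and 23 after set adjustment. The counts in single strains were 14 of 48 in bud32D (12 higher and 2 lower, 11 and 5 after median centring), 22 in gon7D (16 and 6) and 7 in cgi121D (5 and 2), against 42.1%, 53.0% and 20.8% of all codons.

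Codons beginning with G were called lower more often than higher in pus3D. Pus3 makes pseudouridine in the anticodon arm of many tRNAs. In pus3D 24 of 48 values were called lower and 1 higher, against 20.2% lower and 23.5% higher among all codons, and 20 were called lower and 0 higher after set adjustment. At the E site GGG was −0.12 and −0.28, against −0.088 to 0.049 (median −0.0012) in wild type, and fell by 0.20 ± 0.028 (SE; limma adjusted p = 2.67e-08). GGC there was −0.12 and −0.25, against −0.034 to 0.041, and fell by 0.19 (adjusted p = 5.71e-09), and GCG fell by 0.18 (adjusted p = 0.000228). At the P site GCC was −0.14 and −0.18, against −0.049 to 0.031 in wild type, and fell by 0.16 (adjusted p = 1.77e-07). GGC at the P site was −0.094 and −0.22, against −0.031 to 0.021, and fell by 0.16 (adjusted p = 4.9e-06), and GUG fell by 0.14 (adjusted p = 0.00194). The values for GGG at the E site and GGC at both sites lay below the wild-type range in each library and were lower in the second, which held 2030000 reads, against 4110000 in the first. With the 13 shallowest libraries of the series left out, this one among them, GGG at the E site stood at −0.13 (adjusted p = 0.00208), GGC at the E site at −0.13 (adjusted p = 0.00201) and GGC at the P site at −0.092 (adjusted p = 0.0342). In the same fit GUG at the P site stood at −0.12 and did not pass (adjusted p = 0.106). The part of depth was not tested. Usage of GGG and GUG rose by 0.12 in each case, opposite to the site changes.

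Aspartate and glycine codons at the A site marked 3 more strains. In trm4D, which lacks the 5-methylcytosine methyltransferase, GAC was −0.21 and −0.21, against −0.042 to 0.059 (median −0.0028) in wild type, and fell by 0.21 ± 0.030 (SE; limma adjusted p = 6.51e-08). GAU, read by the same tRNA, was −0.22 and −0.13 in trm4D and fell by 0.18 (adjusted p = 0.00203). Both codons lay below the wild-type range in both libraries, and their usage changed by −0.0004 and 0.0014. In tan1D, which lacks a factor for cytidine acetylation in serine and leucine tRNAs, GGU was 0.19 and 0.20, against −0.067 to 0.042 in wild type, and rose by 0.20 (adjusted p = 3.39e-07). GGC rose by 0.18 (adjusted p = 1.97e-05) and GGA by 0.15 (adjusted p = 1e-07) in tan1D. In trm13D, which lacks a ribose methyltransferase of the acceptor stem, GGU was 0.22 and 0.18 and rose by 0.20 (adjusted p = 1.3e-07), GGC rose by 0.17 (adjusted p = 3.38e-05), and GUA at −0.21 and −0.17 fell by 0.19 (adjusted p = 0.00413). In dus1D GAU rose by 0.19 at the A site (adjusted p = 0.000717) and GUU by 0.19 at the P site (adjusted p = 1.26e-06). GGA at the P site was 0.20 and 0.24 in pus7D, which lacks a pseudouridine synthase of tRNA and mRNA, against −0.035 to 0.046 in wild type, and rose by 0.22 ± 0.027 (adjusted p = 5.8e-10). Of 48 values 8 passed in trm4D (3 higher and 5 lower, 2 and 7 after median centring), 19 in tan1D, 13 in trm13D and 11 in pus7D, against 20.8%, 34.4%, 25.7% and 9.84% of all codons. After median centring 9 passed in tan1D, and GGU stood at 0.13 there (adjusted p = 5.4e-05).

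In some pathway means no codon beginning with G passed. The iron-sulfur scaffold strains isu1D and isu2D, and the strains of Trm7 and its partners, each had 0 of 48 values past the threshold in limma, against 0.546% of all codons in both cases. At an unadjusted p under 0.05 the counts were 5 and 4, and with 1 value per strain and adjustment they were 1 and 0. Of the strains averaged in the second mean, trm7D alone had 7 of 48 values past the threshold (2 higher and 5 lower), against 13.1% of all codons (7.10% higher, 6.01% lower), and trm732D and rtt10D had none. The wybutosine strains lack steps in the making of a bulky base of tRNA-Phe. The means of the pseudouridine synthase strains and of the wybutosine strains had 6 (2 higher and 4 lower) and 4 (1 higher and 3 lower, 3 and 3 after median centring) of 48 values past the threshold. The shares of all codons were 14.8% (8.74% higher, 6.01% lower) and 18.0% (7.65% higher, 10.4% lower). After set adjustment the counts were 2 and 0, and with 1 value per strain they were 0 and 2. The dihydrouridine synthase mean had 12 (10 higher and 2 lower, 8 and 3 after median centring), against 27.9% (15.3% higher, 12.6% lower), and 7 after set adjustment. The mean of 3 ribose methyltransferase strains had 16 (12 higher and 4 lower), against 40.4% (21.3% higher, 19.1% lower), and 3 after set adjustment.

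Correlations across strains differed widely between pairs of codons and between sites, both for codons that share a tRNA and for those that do not. Over 57 strains the A-site changes had a Pearson r of 0.93 between GUC and GUU, 0.92 between GGC and GGU and 0.90 between GAC and GAU, given as a description, since the points of a pair come from the same libraries and share the wild-type reference. GCA and GCG had r = 0.12 at the A site and 0.85 at the P site. GCC and GCU had r = 0.72 at the A site, and GAC and GAU 0.46 at the E site. Among pairs read by separate tRNAs, GUA and GUG had r = 0.79 at the A site and 0.23 at the P site, GUC and GUA 0.74 at the A site, and GGA and GGG 0.70 at the P site, against 0.66 there for GGC and GGU.

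The A-site and P-site changes were tested against each other for every strain and codon. In 24.3% of 896 tests the difference passed, with 89 higher, against 25.0% of all codons. Footprint-weighted usage of codons beginning with G was called in 30.1% of 896 tests, against 28.4% of all codons. Site changes followed usage unevenly: over 57 strains r ran from −0.59 (GAG) to 0.56 (GAC) at the A site. At the P site r ran from −0.55 (GCC) to 0.44 (GCA). Values after subtraction of usage are thus given as an alternative, not as corrected changes.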

How the data were processed

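Ribosome footprints of 57 deletion strains (113 libraries) and wild type (13 libraries in the codon table) were analysed. Per the submitters' processing notes, TopHat2 2.0.12, HOMER 4.6 and SAMtools were used with the build sacCer3. The authors deposited log2 values that compare normalized codon frequency with wild type in each ribosomal site, RPKM values per gene for footprints and RNA, and a ratio of footprint to RNA per gene relative to wild type with 1 added before division. How the codon in each site was assigned is not given in the sources used here. The ratio table was used only to place the strain libraries in processing sets. For codons, 378 of 380 value columns were used, since 2 repeated others (122 of 122 values equal).

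The wild-type reference by which the deposited ratios had been divided placed 11, 39 and 6 strains in 3 processing sets. These sets held 6, 3 and 4 wild-type libraries, and dus2D matched none. Log2 values were fitted with limma 3.58.1 in R 4.3.3 over all libraries, each strain against the 13 wild-type libraries, with Benjamini-Hochberg adjustment over 10248 tests for strains and over 183 for each pathway mean. The deposited values are already relative to the mean of the wild-type libraries of each set. Counting all 13 as the reference understates the error of that mean, which the strains of a set share, so these p-values are too small. The fit with a set term counts only the wild-type libraries of the set. Wild-type libraries are part of their own mean, which narrows the wild-type ranges. A call is an adjusted p under 0.05. A pathway mean averages its strains, and its error is the spread between libraries of a strain. Codon usage was computed from the coding sequences of 5988 genes weighted by the deposited footprint RPKM. Reads per library were recovered from whole-number steps of the low RPKM values, of which 94.8% to 98.1% were whole within 0.1 reads, against 20% for values with no step. The analysis was tested on simulated data. Strains and codons were named where a change was among the 30 largest at a site with both libraries on one side of wild type, as the highest or lowest strain of a codon, among the called codons of a pathway of several strains, as a wobble codon of its enzyme, or as GCU and GCC in tad1D. A few others (among them GAA and GGA in trm9D, GUA in trm8D and trm82D, and the smaller changes of trm1D, trm10D and trm112D) were chosen after their values were seen. The codons and lists were chosen with earlier results of these data known. Alternatives were a set term, median centring, other adjustments and filters, subtraction of usage, a replicate block, 1 value per strain and leaving out libraries. Leaving out dus2D, and trm112D against trm9D with and without median centring, were added after seeing the data.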

Additional observations from a re-analysis of the deposited data

Results flagged for a closer look

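The values below are differences between groups that passed limma's test of the difference itself, on the log2 scale, and their causes were not tested. Elongator minus thiolation strains, GCG differed at all sites: by 0.0581 at the A site, 0.1294 at the P site and −0.0648 at the E site. GCA differed by −0.0768 at the A site and 0.0455 at the P site, and GAA by 0.0328 and −0.0325. GGA differed by −0.0430 and GGG by 0.0638 at the A site. GUC differed by 0.0408 and GUG by 0.0797 at the P site. At the E site GCC differed by −0.0444 and GGC by −0.0397. With the processing set as a term 4 of these 13 passed: GCA and GGA at the A site (adjusted p = 0.000669 and 0.0405) and GCG and GUG at the P site (adjusted p = 0.000357 and 0.011).

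Between trm112D and trm9D, GAA differed by −0.2536 at the A site and by 0.2092 at the P site. The shift of the median codon of trm112D at the A site, the depth of its libraries and the separate processing sets of these strains are given with those results.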

How the results depend on the processing

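Among tests of codons beginning with G 17.2% passed, and 10.7% after adjustment for the processing set, where the thiolation mean had 7 calls, the Sit4 mean 3, the mean of trm8D and trm82D 4, and the Elongator against thiolation contrast 4. Other settings gave 16.3% to 17.9% (median centring 16.3%, adjustment within each strain 17.9%, robust estimation 17.3%, the 7 least used codons left out 17.8%, the 13 shallowest libraries left out 16.9%, dus2D left out 16.5%), and 24.4% with usage subtracted. Leaving out the shallowest libraries removed both libraries of trm112D and both of ncs2D. The Trm9 and Trm112 mean then held trm9D alone and had 7 calls, and the thiolation mean, without ncs2D, had 16. With usage subtracted the thiolation mean had 32 and the Sit4 mean 24. With 1 value per strain the Trm9 and Trm112 mean had 12 and the Elongator against thiolation contrast 2. The causes were not tested.

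Leaving out 1 library, replicate number or strain at a time gave 16.6% to 21.5% of all tests and 23.4% to 27.7% for the A-site minus P-site change. It gave 29 to 37 for the Elongator mean, 10 (without ncs6D) to 23 (without replicate 2) for thiolation, 2 (without trm112D) to 33 (without trm9D) for Trm9 and Trm112, 7 (without sit4D) to 19 for Sit4, 22 to 33 for KEOPS, 4 (without trm8D) to 11 (without replicate 1) for trm8D and trm82D, and 7 (without replicate 2 or without ncs2D) to 20 (without replicate 1) for Elongator against thiolation.

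Whether samples that share a replicate number deviate together was examined over 1540 pairs of strains, pooled over the processing sets. The correlation ran from −0.8154 to 0.8435 with a median of 0.0334, and 41.8% were over 0.1. Pairs within a set were not examined apart, so these values cannot show whether such samples deviate together there. A replicate block leaves 2 wild-type libraries in the comparison. With that block 7.89% of all tests passed and 13.6% for the A-site minus P-site change, and the calls were 8 for Elongator, 3 for thiolation, 15 for Trm9 and Trm112, 2 for Sit4, 13 for KEOPS and 4 for trm8D and trm82D, and GGA at the A site in trm9D turned to −0.0155.

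Some named values changed sign. GGA at the A site in trm9D was −0.0023 after median centring and −0.0007 to 0.0377 with the first or second library of every strain left out. With usage subtracted GCA and GUG at the P site were −0.0034 and −0.0030 in the Elongator mean, GUA at the P site was −0.0062 in the thiolation mean, GGA and GGC at the A site were −0.0456 and −0.0007 in the KEOPS mean, GCU at the E site was −0.0075 in tad1D, and GGA at the E site was −0.1536 in trm112D. With the first or second library of every strain left out tad1D ran from −0.0341 (adjusted p = 0.04) to 0.0386 (adjusted p = 0.0221) for GCU and from −0.0399 (adjusted p = 0.214) to 0.0867 (adjusted p = 0.00995) for GCC at the E site. In those fits nearly all of the spread comes from the wild-type libraries, and the lone library of a strain is assumed to vary like them. With 2 libraries a strain small changes can be missed, so a value that did not pass is not shown to be unchanged.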
